A study of Mus musculus with 9 samples.

Results

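The genes described here are 51 genes of the cell division cycle, 25 that act at the start of S phase and in DNA replication and 26 that act in G2 and mitosis. They were chosen by symbol for their known roles from 54838 mouse gene identifiers, with earlier results of these data known. All 51 were found, none was under 1 FPKM in any library (0), and all were among the 12702 genes tested. FPKM is the number of sequenced fragments scaled for transcript length and for the fragments mapped in the library. Values are therefore per length and can be compared between genes.

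The libraries came from small intestinal organoids, which are epithelial cultures that grow crypt-like buds, of Vil-CreERT2;Mettl3 fl/fl mice on C57BL/6. Every group carried the same genotype: both alleles of Mettl3, the catalytic subunit of the m6A methyltransferase, are floxed, and the Villin promoter drives a tamoxifen-dependent Cre in the intestinal epithelium. The controls had vehicle (EtOH) for 2 days and the others 4-hydroxytamoxifen (4-OHT, 0.5 µM) for 2 days, each with DMSO or with necrostatin-1 (Nec-1, an inhibitor of the kinase RIPK1) for 5 days. The source mice were 2 to 4 months old. Nec-1 is given as 5 µM in one place of the study and as 10 µM in another. There were 2 libraries of EtOH DMSO, 2 of EtOH Nec-1, 2 of 4-OHT DMSO and 1 of 4-OHT Nec-1. No group without Cre had 4-OHT, so the drug and the deletion cannot be told apart. It is not stated whether libraries came from separate cultures, and p-values measure only the spread between these samples.

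A dividing cell copies its genome in S phase and separates the copies in mitosis. Before S phase, Cdc6 and Cdt1 load the MCM ring, the replicative helicase, onto origins, and cyclin E with Cdk2 and the GINS and Cdc45 proteins help to start it. E2F factors switch these genes on late in G1. The genes of G2 and mitosis peak later, through the MuvB complex, B-Myb and FoxM1, which act at a promoter element called CHR. Promoters of these genes often hold CCAAT boxes as well. In the intestine, dividing cells sit in the crypt, as Lgr5-positive stem cells and as transit-amplifying cells, and their mature daughters leave the cycle.

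Promoters of both classes carry these letters, though not in every gene. The 6 stretches of sequence all come from promoters with matches. The Mcm stretches are not typical of the S-phase class, in which most promoters examined had no E2F letters. In 300-base windows from RefSeq (GRCm38.p6), 250 bases before to 50 after a gene's start, 41 of the 51 genes had a sequence, 4 of them with several windows, and a gene is counted when any of its windows holds the letters. E2F letters (TTTCCCGC, TTTCGCGC, TTTGCCGC or TTTGGCGC on either strand) stood at 9 of 21 S-phase genes (42.9%), at 1 of 20 G2/M genes (5%) and at 2.6% of 27025 genes with a window. A CHR (TTTGAA or TTTAAA on either strand, of which the second is its own reverse complement) stood at 8 of 21 S-phase genes (38.1%), 18 of 20 G2/M genes (90%) and 30.6% of all genes. A CHR together with CCAAT on either strand was found at 6 of 21 S-phase genes (28.6%), 17 of 20 G2/M genes (85%) and 13.4% of all genes. A match describes letters and is not evidence of a bound site. In the stretches below, all before the annotated start of the gene and on its strand, capitals mark E2F letters and CCAAT in the Mcm genes and CHR and CCAAT in the others. The E2F matches at the left of Mcm5 and of Mcm6 overlap each other. Mcm5 is at chr8:75109349-75109458, Mcm6 at chr1:128359706-128359825 (minus strand), Top2a at chr11:99024200-99024299 (minus), Kif11 at chr19:37376322-37376381, Ccnb1 at chr13:100786487-100786596 (minus) and Cdc20 at chr4:118437344-118437403 (minus).
Mcm5: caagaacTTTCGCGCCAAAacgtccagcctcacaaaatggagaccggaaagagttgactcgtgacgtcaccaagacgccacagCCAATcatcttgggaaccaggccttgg
Mcm6: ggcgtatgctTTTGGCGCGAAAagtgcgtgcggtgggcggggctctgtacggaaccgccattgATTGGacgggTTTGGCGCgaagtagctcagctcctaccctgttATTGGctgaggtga
Top2a: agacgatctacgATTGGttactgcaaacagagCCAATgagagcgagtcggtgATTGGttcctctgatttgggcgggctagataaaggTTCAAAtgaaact
Kif11: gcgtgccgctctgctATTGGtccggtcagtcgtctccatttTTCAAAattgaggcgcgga
Ccnb1: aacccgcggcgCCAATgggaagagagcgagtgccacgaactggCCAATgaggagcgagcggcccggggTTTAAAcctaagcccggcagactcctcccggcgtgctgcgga
Cdc20: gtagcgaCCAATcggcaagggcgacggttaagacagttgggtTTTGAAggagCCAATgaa

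The 7 libraries summed to 450207 to 498712 FPKM. Replicates correlated with Pearson's r of 0.986 to 0.9945 on log2(FPKM + 1) over all 54838 identifiers. Of these, 26643 were 0 in every library. Mettl3 was at 2.70 and 2.71 FPKM with EtOH DMSO, 2.41 and 2.47 with EtOH Nec-1, 3.72 and 4.14 with 4-OHT DMSO and 3.36 with 4-OHT Nec-1. It was thus not lower in the libraries labelled 4-OHT (log2 change 0.41, SE 0.098, adjusted p = 0.0231, limma). A value over the whole gene does not show whether the floxed exons were lost. The 4-OHT DMSO replicates stood apart in the cycle genes: 46 of the 51 were higher in replicate 1 than in replicate 2, against 52% of all genes tested.

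In EtOH DMSO the most abundant member was Pcna, the sliding clamp that holds polymerases on DNA, at 96.0 and 77.8 FPKM. Ccnb2 (a B-type cyclin of mitosis) followed at 53.0 and 50.3 FPKM, then Cdc20 at 46.1 and 41.3 and Ube2c at 40.3 and 41.2, both of the anaphase promoting complex pathway that destroys the cyclins. At the other end, Cdc6 had 1.62 and 2.14 FPKM and Ccne1, cyclin E1, 2.23 and 1.46. The G2/M genes were the more highly expressed class, with a mean log2(FPKM + 1) of 3.83 and 3.80 with EtOH DMSO against 2.98 and 2.98 for the S-phase genes.

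**Figure D1:**
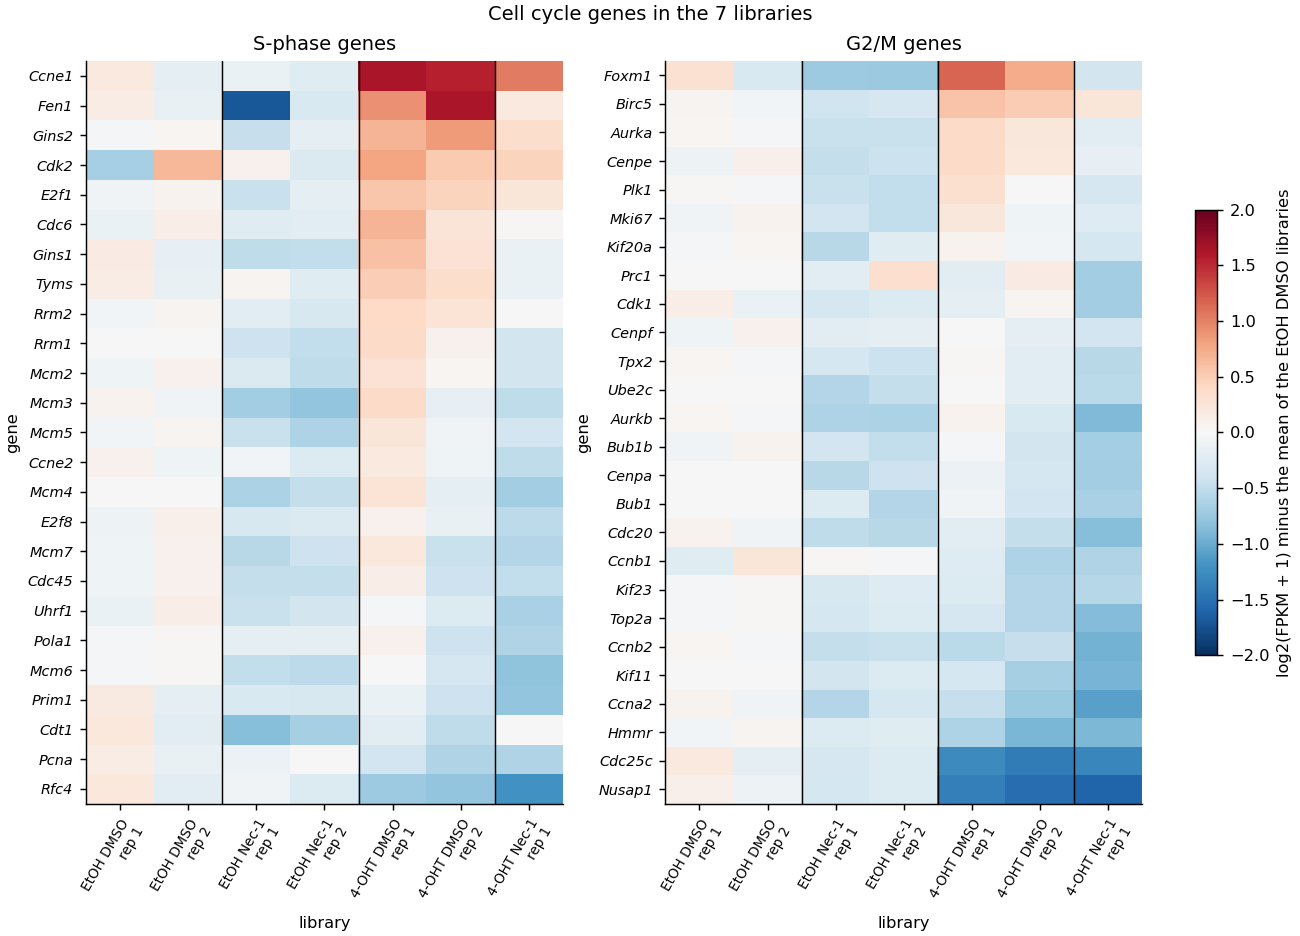
Each row is a gene and each column a library, with colour for log2(FPKM + 1) minus the gene's mean in the EtOH DMSO libraries, genes ordered by their 4-OHT change. The EtOH Nec-1 columns are blue for 50 of 51 genes on average, while the 4-OHT DMSO columns run from red at the top (Ccne1, Foxm1) to blue at the bottom (Rfc4, Nusap1).

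The comparison of 4-OHT DMSO with EtOH DMSO asks how the cycle genes differed with 4-OHT, where drug and Mettl3 deletion cannot be told apart. Members moved in both directions. Cyclin E1, the GINS subunit Gins2 and FoxM1 were higher in the 4-OHT organoids, and the spindle protein Nusap1, the phosphatase Cdc25c and 6 further mitotic genes were lower. With limma on log2(FPKM + 1), 17 of the 51 passed an adjusted p of 0.05, 7 higher and 10 lower. Over all genes tested 24.5% were called higher and 16.7% lower, 41.2% in either direction, so the share of members called (17 of 51) was below that of all genes.

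Among the 25 S-phase genes 4 rose, 2 fell and 19 did not pass, beside 24.5% of all genes called higher and 16.7% lower. Ccne1 (chr7:38097984-38107490, GRCm38.p6), whose cyclin activates Cdk2 at the G1/S boundary, had 2.23 and 1.46 FPKM with EtOH DMSO, 1.57 and 1.39 with EtOH Nec-1, 7.70 and 7.24 with 4-OHT DMSO and 4.80 with 4-OHT Nec-1. All 3 libraries with 4-OHT lay above all 4 without it. The mean was 4.05-fold higher in 4-OHT DMSO than in EtOH DMSO (log2 change 1.59, SE 0.15, adjusted p = 0.00154). Its partner kinase Cdk2 spread too widely for a call, at 1.84 and 6.17 FPKM with EtOH DMSO and 6.82 and 5.46 with 4-OHT DMSO, and Ccne2, cyclin E2, had 2.98 and 2.53 against 3.28 and 2.54.

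The MCM ring, by contrast, had no member called. The 6 subunits Mcm2 to Mcm7 had log2 changes of -0.17 to 0.17 with adjusted p of 0.319 to 0.864, and in each the 2 groups overlapped. For Mcm2, FPKM was 4.53 and 5.17 with EtOH DMSO, 3.76 and 3.10 with EtOH Nec-1, 6.11 and 5.03 with 4-OHT DMSO and 3.52 with 4-OHT Nec-1. The replicates of 4-OHT DMSO differed most for Mcm7, at 20.6 and 12.8 FPKM, around the EtOH DMSO values of 16.6 and 18.9. The loading factors did not pass either, with Cdc6 at 0.47 (adjusted p = 0.0887) and Cdt1 at -0.36 (adjusted p = 0.177).

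Next to the ring, Gins2 rose. It had 4.11 and 4.39 FPKM with EtOH DMSO, 2.83 and 3.61 with EtOH Nec-1, 7.45 and 8.50 with 4-OHT DMSO and 5.70 with 4-OHT Nec-1 (log2 change of 4-OHT DMSO 0.77, SE 0.13, adjusted p = 0.00755). Its partner Gins1 was at 5.53 and 4.22 FPKM with EtOH DMSO and 7.72 and 6.16 with 4-OHT DMSO (0.44, adjusted p = 0.0718), and Cdc45 at 3.01 and 3.54 against 3.67 and 2.19. Of the factors that switch the replication genes on, E2f1 had 2.34 and 2.70 FPKM with EtOH DMSO, 1.57 and 2.1 with EtOH Nec-1, 4.14 and 3.78 with 4-OHT DMSO and 3.17 with 4-OHT Nec-1. It rose by 0.50 on the log2 scale (SE 0.14, adjusted p = 0.0339). E2f8, a repressor of the same family, was at 3.12 and 3.70 against 3.65 and 2.97 FPKM.

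The 3 genes of nucleotide supply were all higher in both 4-OHT DMSO libraries than in both EtOH DMSO libraries, and 1 passed. Of all genes tested, 40.7% were higher in this way. Rrm2, the regulated subunit of ribonucleotide reductase, had 21.2 and 23.1 FPKM with EtOH DMSO, 18.8 and 17.5 with EtOH Nec-1, 29.6 and 26.9 with 4-OHT DMSO and 22.0 with 4-OHT Nec-1 (0.34, SE 0.094, adjusted p = 0.0366). Rrm1, the other subunit, and Tyms, which makes thymidylate, had log2 changes of 0.23 and 0.42 with adjusted p of 0.175 and 0.0808.

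At the fork, the clamp and a subunit of its loader fell. Pcna had 96.0 and 77.8 FPKM with EtOH DMSO, 79.8 and 86.4 with EtOH Nec-1, 65.9 and 56.6 with 4-OHT DMSO and 56.4 with 4-OHT Nec-1. This was a fall of 29.5% between the DMSO means (log2 change -0.49, SE 0.13, adjusted p = 0.0343). Rfc4, of the clamp loader, had 17.4 and 12.8 FPKM with EtOH DMSO, 14.2 and 12.2 with EtOH Nec-1, 8.59 and 8.26 with 4-OHT DMSO and 5.91 with 4-OHT Nec-1 (-0.76, SE 0.16, adjusted p = 0.0152). Both genes were lower in every 4-OHT library than in every EtOH library. The polymerase α subunit Pola1 and the primase Prim1 had log2 changes of -0.16 and -0.27 that did not pass, and Uhrf1, which carries DNA methylation through replication, -0.15.

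Fen1, the flap nuclease of Okazaki fragments, had the second largest change among the S-phase genes but no call. It had 10.9 and 8.62 FPKM with EtOH DMSO, 2.30 and 7.70 with EtOH Nec-1, 19.2 and 32.2 with 4-OHT DMSO and 11.2 with 4-OHT Nec-1 (1.27, SE 0.49, adjusted p = 0.0886). Replicates differed widely. Fen1 overlaps Tmem258 in the annotation, as 22 of the 51 members overlap another gene, and whether the counting used strand is not stated. Of the members called, Gins2, Rfc4, E2f1, Ccna2, Aurka, Nusap1 and Foxm1 overlap a protein-coding gene.

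Among the 26 G2/M genes 3 rose, 8 fell and 15 did not pass, beside 24.5% of all genes called higher and 16.7% lower. Nusap1 (chr2:119618298-119650165), which bundles spindle microtubules, fell most. It had 17.9 and 15.5 FPKM with EtOH DMSO, 12.8 and 13.6 with EtOH Nec-1, 5.84 and 5.12 with 4-OHT DMSO and 4.85 with 4-OHT Nec-1, which was 67.2% lower in 4-OHT DMSO than in EtOH DMSO (-1.45, SE 0.11, adjusted p = 0.000822). Cdc25c, the phosphatase that removes the inhibitory phosphates of Cdk1, had 8.89 and 6.59 FPKM with EtOH DMSO, 5.84 and 6.13 with EtOH Nec-1, 2.57 and 2.28 with 4-OHT DMSO and 2.49 with 4-OHT Nec-1 (-1.34, SE 0.15, adjusted p = 0.00221). For both genes the 3 libraries with 4-OHT lay far below the 4 without it.

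Hmmr, a spindle assembly factor, had 8.19 and 8.81 FPKM with EtOH DMSO, 6.89 and 7.04 with EtOH Nec-1, 5.19 and 4.06 with 4-OHT DMSO and 4.10 with 4-OHT Nec-1 (-0.76, SE 0.12, adjusted p = 0.00669). Ccna2, cyclin A2, had 33.5 and 30.6 FPKM with EtOH DMSO, 21.1 and 24.9 with EtOH Nec-1, 23.1 and 18.7 with 4-OHT DMSO and 14.5 with 4-OHT Nec-1 (-0.60, SE 0.14, adjusted p = 0.0203). The 4-OHT DMSO values of Ccna2 overlapped those of EtOH Nec-1, unlike those of Hmmr. Kif11, the kinesin that pushes the poles apart (-0.51, adjusted p = 0.0249), Ccnb2 (-0.50, adjusted p = 0.00574) and Kif23, a kinesin of the midzone (-0.43, adjusted p = 0.0422), fell by 29.1% to 31.2% of the EtOH DMSO mean.

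The 2 genes most used as markers of dividing cells differed in their call. Top2a, the topoisomerase that untangles mitotic chromosomes, fell, with 28.1 and 29.3 FPKM with EtOH DMSO, 22.3 and 23.5 with EtOH Nec-1, 22.6 and 18.8 with 4-OHT DMSO and 15.3 with 4-OHT Nec-1 (-0.46, SE 0.11, adjusted p = 0.022). Mki67, which coats mitotic chromosomes, had 22.8 and 25.2 FPKM with EtOH DMSO, 18.2 and 16.8 with EtOH Nec-1, 28.2 and 22.5 with 4-OHT DMSO and 19.9 with 4-OHT Nec-1, with a log2 change of 0.07 (SE 0.13, adjusted p = 0.708). The DMSO groups of Mki67 overlapped. The difference between these 2 genes was not tested.

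Cdk1, the kinase that drives entry into mitosis, did not pass either, at 18.1 and 15.0 FPKM with EtOH DMSO, 12.7 and 13.4 with EtOH Nec-1, 14.5 and 17.2 with 4-OHT DMSO and 9.85 with 4-OHT Nec-1 (4-OHT DMSO -0.05, SE 0.13, adjusted p = 0.759). Its activator Ccnb1, cyclin B1, had 11.5 and 16.4 FPKM with EtOH DMSO, 14.0 and 13.4 with EtOH Nec-1, 11.4 and 8.64 with 4-OHT DMSO and 8.77 with 4-OHT Nec-1 (-0.43, SE 0.20, adjusted p = 0.132). All 5 genes of the group of mitotic cyclins, Cdk1 and Cdc25c had a negative change, and 3 of them passed.

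Of the 3 G2/M genes that rose, Foxm1 (chr6:128362994-128375886), the transcription factor of the class, had 3.46 and 1.91 FPKM with EtOH DMSO, 1.17 and 1.15 with EtOH Nec-1, 7.03 and 5.03 with 4-OHT DMSO and 1.79 with 4-OHT Nec-1. Only the 4-OHT DMSO libraries stood high, 2.25-fold above EtOH DMSO (0.95, SE 0.24, adjusted p = 0.0278). Birc5, or survivin, of the chromosomal passenger complex, had 17.8 and 16.3 FPKM with EtOH DMSO, 12.7 and 13.3 with EtOH Nec-1, 25.8 and 24.7 with 4-OHT DMSO and 20.4 with 4-OHT Nec-1 (0.54, SE 0.084, adjusted p = 0.00593). Aurka, a centrosomal kinase, had 15.3 and 14.3 FPKM with EtOH DMSO, 10.6 and 10.6 with EtOH Nec-1, 19.7 and 17.4 with 4-OHT DMSO and 12.6 with 4-OHT Nec-1 (0.30, SE 0.094, adjusted p = 0.0488).

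The remaining 12 G2/M genes had log2 changes of -0.34 (Cdc20, adjusted p = 0.0667) to 0.30 (Cenpe, a centromere kinesin, adjusted p = 0.0855). They include the mitotic kinases Plk1 (0.15) and Aurkb (-0.11), the checkpoint kinases Bub1 (-0.23) and Bub1b (-0.19), the centromere proteins Cenpa (-0.23) and Cenpf (-0.09), Ube2c (-0.10), and Tpx2 (-0.10), Kif20a (0.01) and Prc1 (-0.03) of the spindle.

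**Figure D2:**
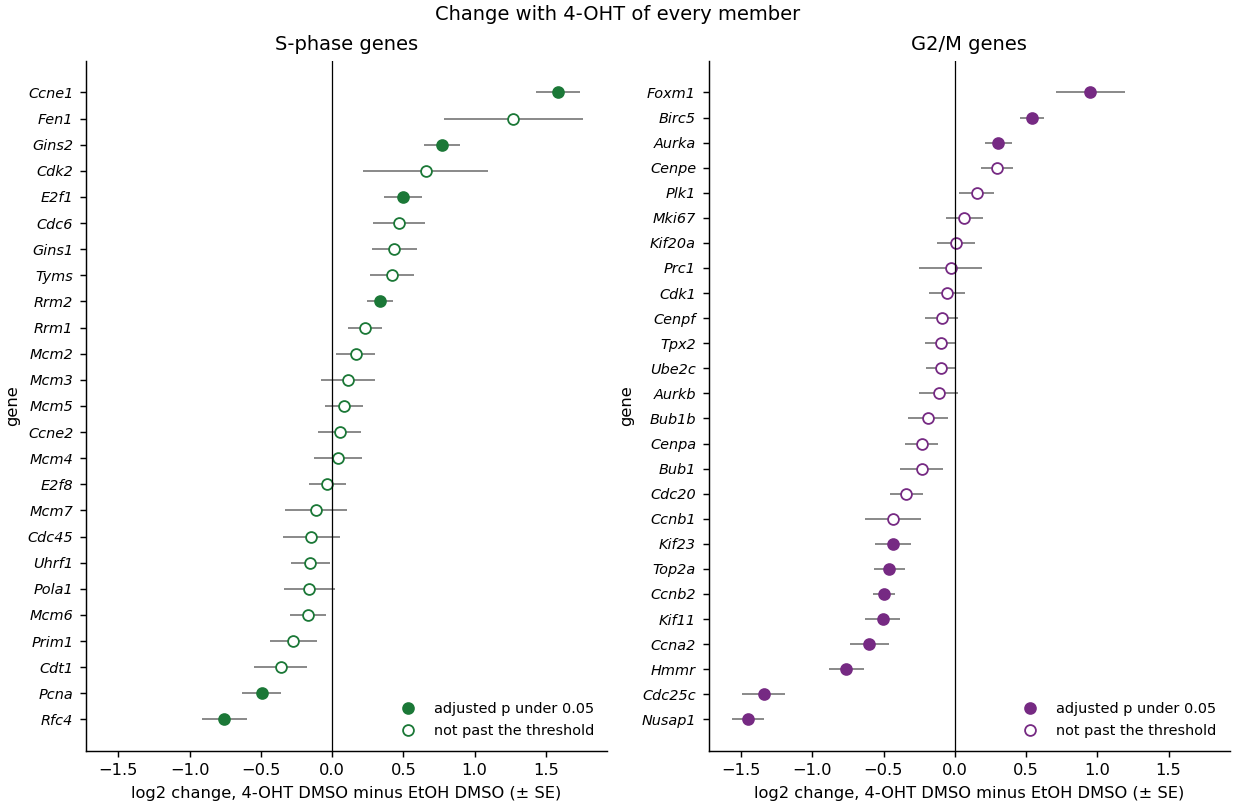
Points are log2 changes of FPKM + 1 between 4-OHT DMSO and EtOH DMSO, bars are SE, and filled points passed an adjusted p of 0.05. In the S-phase panel 4 filled points are to the right and 2 to the left; in the G2/M panel 3 are to the right and 8 to the left.

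Without regard to a test, 13 of the 51 were higher in both 4-OHT DMSO libraries than in both EtOH DMSO libraries (40.7% of all genes tested) and 14 lower (30.8%). The split depends on scaling. When libraries were centred on their medians, the median change of all genes went from 0.08 to -0.08, and 3 members were called higher and 12 lower in place of 7 and 10, beside 17.4% and 25.1% of all genes. Upper quartile scaling gave 4 and 12, beside 17.6% and 23.4%, so that the calls over all genes turned the same way. Groups apart then numbered 8 higher and 26 lower after centring (30.9% and 41.6% of all genes) and 9 higher and 24 lower after upper quartile scaling (31.7% and 39.6%). Of the 17 calls, 8 held whichever library was left out of the fit (Ccne1, Gins2, Rfc4, Ccnb2, Cdc25c, Birc5, Nusap1 and Hmmr). Fewer members were called when any 1 library was left out, and the number called among all genes tested fell as well. The highest adjusted p values of the 9 other genes were 0.121 for Pcna, 0.128 for Rrm2, 0.129 for E2f1, 0.0956 for Ccna2 and 0.0955 for Kif11 without EtOH DMSO replicate 1, 0.138 for Kif23 and 0.0872 for Top2a without EtOH DMSO replicate 2, and 0.161 for Aurka and 0.0868 for Foxm1 without 4-OHT DMSO replicate 1.

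Set against each other, the S-phase genes stood closer to the G2/M genes in the libraries with 4-OHT. The mean log2(FPKM + 1) of the S-phase genes minus that of the G2/M genes was -0.85 and -0.82 with EtOH DMSO, -0.82 and -0.84 with EtOH Nec-1, -0.42 and -0.46 with 4-OHT DMSO and -0.47 with 4-OHT Nec-1. The 3 libraries with 4-OHT did not overlap the 4 without it. Leaving out the 5 genes Ccne1, Fen1, Foxm1, Nusap1 and Cdc25c, chosen after their values were seen, gave -0.89, -0.89, -0.84 and -0.91 without 4-OHT and -0.61, -0.70 and -0.66 with it. The median log2 change with 4-OHT was 0.08 for the S-phase genes and -0.15 for the G2/M genes, a distance of 0.234, beside 0.08 for all genes tested. The S-phase median changed sign with the scaling, to -0.07 after centring, when the G2/M median was -0.31, whereas the distance between the classes is set by values within a library. No test was made of a score over the genes, whose values are not independent of each other.

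**Figure D3:**
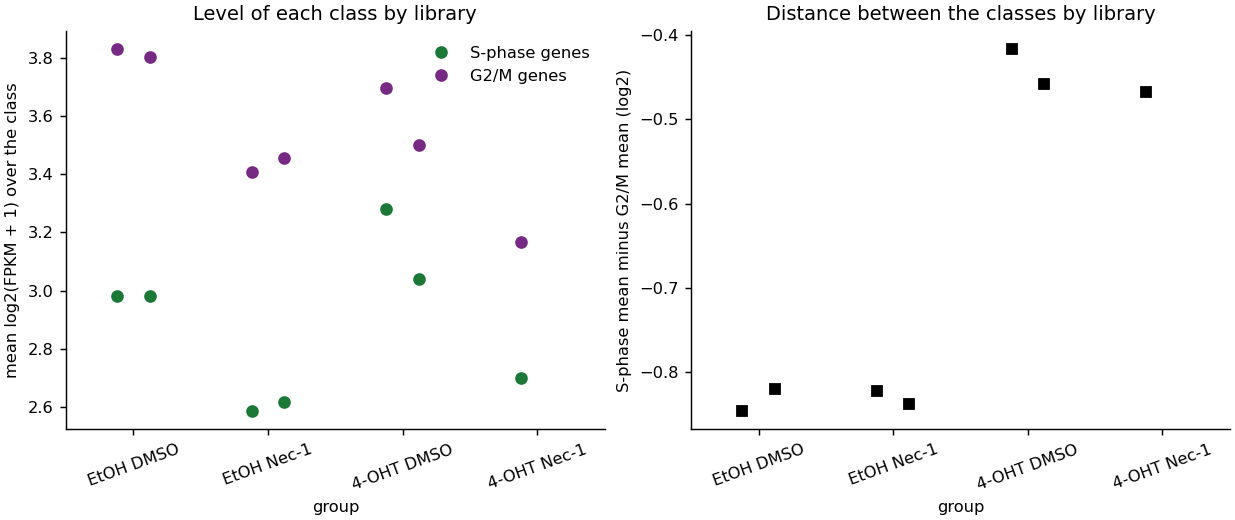
The left panel gives the mean log2(FPKM + 1) of the 25 S-phase and the 26 G2/M genes in each of the 7 libraries, and the right panel the S-phase mean minus the G2/M mean. The 4 libraries without 4-OHT lie between -0.85 and -0.82 on the right, and the 3 with 4-OHT between -0.47 and -0.42; both classes are lower in the Nec-1 libraries than in the DMSO libraries of their arm.

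Genes of the same pathways outside the 51 also moved in both directions. Of 54 other replication genes 53 were tested, and 7 rose and 4 fell with 4-OHT, beside 24.5% and 16.7% of all genes tested. The largest rises were Exo1, an exonuclease (0.570 and 0.775 FPKM with EtOH DMSO, 0.413 and 0.506 with EtOH Nec-1, 2.58 and 2.42 with 4-OHT DMSO, 1.55 with 4-OHT Nec-1, log2 change 1.07), and Dbf4, the activator of the Cdc7 kinase (4.14, 3.80, 3.00, 3.41, 8.54, 7.78 and 6.84 in the same order, 0.88). The largest falls were Pold2, of polymerase δ (31.5, 26.8, 27.6, 24, 16, 15.2 and 15.9, -0.86), and Orc3, of the origin recognition complex (5.45, 6.08, 6.05, 6.08, 3.83, 3.25 and 3.63, -0.58). In these 4 genes the 3 libraries with 4-OHT were on one side of the 4 without it.

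Of 60 other mitosis genes 59 were tested, and 6 rose and 6 fell, beside 24.5% and 16.7% of all genes tested. In the same order of libraries, Cdca5, or sororin, which protects cohesion, had 6.25, 6.30, 4.40, 3.77, 16.7, 14.2 and 10.9 FPKM (1.17). Cenpw, of the inner kinetochore, had 2.62, 2.51, 2.74, 2.98, 5.58, 4.03 and 3.61 (0.69). Spc25, of the Ndc80 complex, had 8.19, 7.66, 5.64, 7.39, 3.16, 4.91 and 3.99 (-0.85), and Cenpm 5.42, 6.27, 3.36, 3.95, 3.31, 3.01 and 2.35 (-0.72). The median log2 change was 0.04 for the other replication genes and -0.08 for the other mitosis genes, and -0.12 and -0.24 after centring.

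Of 19 genes that restrain the cycle 18 were tested, and 3 rose and 6 fell, beside 24.5% and 16.7% of all genes tested. Rb1, the retinoblastoma protein that holds E2F in check, had 18.8 and 19.0 FPKM with EtOH DMSO, 15.6 and 16.9 with EtOH Nec-1, 5.06 and 5.92 with 4-OHT DMSO and 5.70 with 4-OHT Nec-1 (-1.62, SE 0.10, adjusted p = 0.000506). Cdkn1b, the Cdk inhibitor p27, had 24.7 and 19.6, 18.3 and 26.7, 10.6 and 11.8, and 11.8 FPKM in the same groups (-0.92, adjusted p = 0.018). Both genes were low in all 3 libraries with 4-OHT. Btg2, an antiproliferative gene, rose, at 22.1, 25.2, 20.4, 22.8, 43.2, 47.8 and 43.4 FPKM (0.92), as did Pkmyt1, a kinase that inhibits Cdk1, at 6.11, 6.05, 4.06, 3.55, 8.73, 8.09 and 6.32 (0.41).

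Of 10 genes that drive G1, 1 rose and 3 fell, beside 24.5% and 16.7% of all genes tested. E2f3 had 5.32 and 5.70 FPKM with EtOH DMSO, 4.53 and 4.24 with EtOH Nec-1, 7.71 and 8.74 with 4-OHT DMSO and 7.42 with 4-OHT Nec-1 (0.50, adjusted p = 0.0133). Cdk4, the kinase of D-type cyclins, had 41.5, 35.3, 31.7, 27.5, 23.4, 23.4 and 19.2 FPKM in the order above (-0.69, adjusted p = 0.00728). Mycn had 1.19, 2.05, 0.784, 1.17, 0.206, 0.259 and 0.220 (-1.07, adjusted p = 0.012). For Mycn the values with 4-OHT were under 1 FPKM, where the added 1 makes the log2 change smaller than the ratio of the levels.

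**Figure D4:**
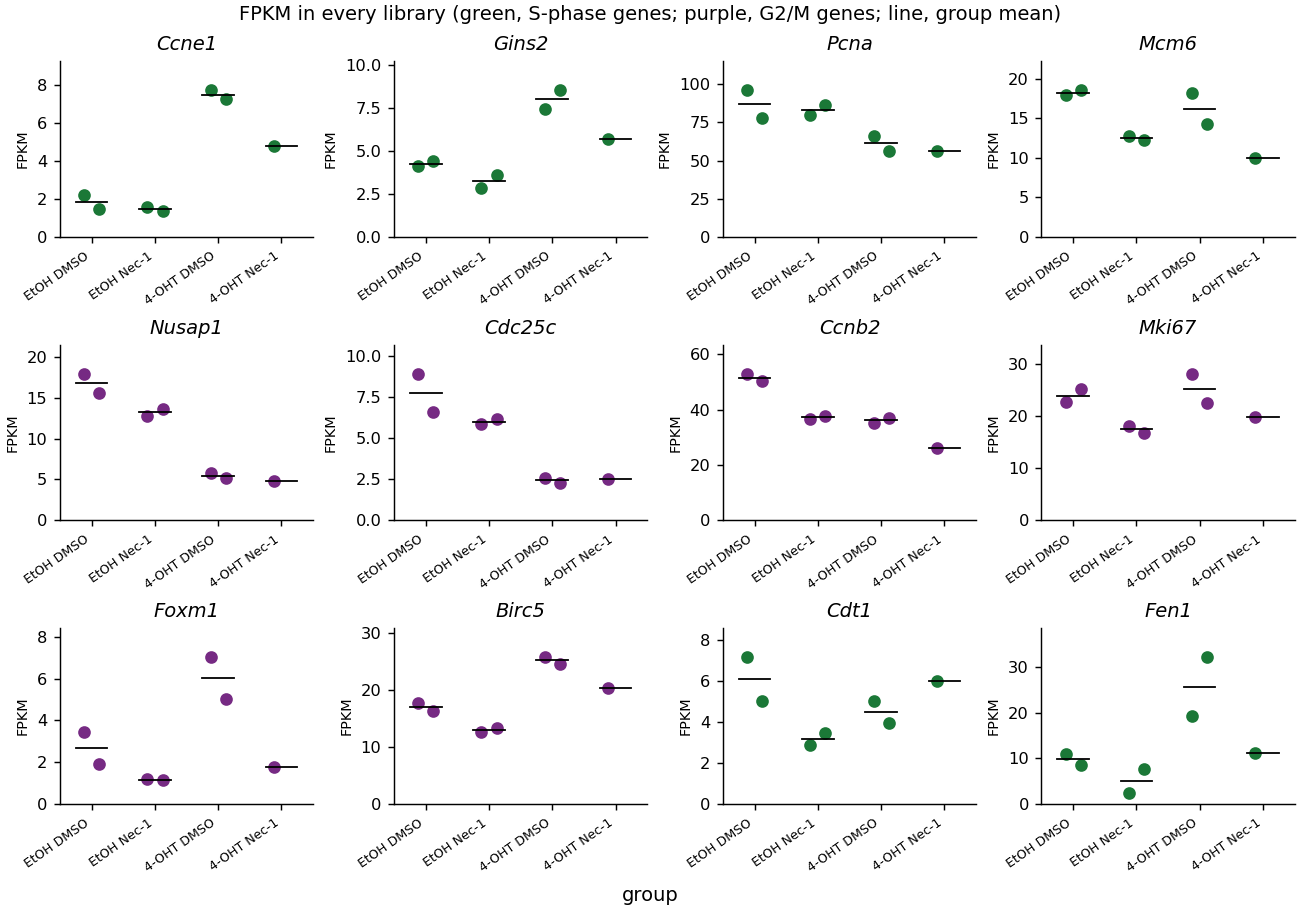
Each panel gives the FPKM of a gene in the 7 libraries by group, with a line at the group mean and an axis that starts at 0. Ccne1 stands above the EtOH libraries and Nusap1 and Cdc25c below them in all 3 libraries with 4-OHT; Foxm1 is high in the 4-OHT DMSO libraries alone, and Cdt1 is lower with Nec-1 in EtOH organoids and higher with Nec-1 in 4-OHT organoids.

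The comparison of EtOH Nec-1 with EtOH DMSO asks what the RIPK1 inhibitor did in control organoids. Nearly all the cycle genes read lower with Nec-1, in both classes, but no single gene passed the test. In 43 of the 51 both Nec-1 libraries were below both DMSO libraries, 19 of 25 S-phase and 24 of 26 G2/M genes, against 39.1% of all genes tested. In 0 were both above, against 10.5%. The log2 change was negative in 50 of 51, with a median of -0.40 (-0.32 for the S-phase and -0.42 for the G2/M genes) beside -0.09 for all genes tested.

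By limma, 0 of the 51 were called, and the fit called 0.22% of all genes (28 of 12702), 0.173% higher and 0.0472% lower; the lowest adjusted p of a member was 0.134. At an unadjusted p under 0.05, 29 members were lower, 10 S-phase and 19 G2/M genes, against 10.4% of all genes, and 0 were higher, against 2.92%. Centring each library left 41 of 51 with both Nec-1 libraries below, against 21.7% of all genes, and a median of -0.30; upper quartile scaling left 43, against 23.6%. All 51 genes were read in the same 2 libraries a group, so a shift of many genes is not many independent findings.

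The MCM ring was low as a whole. All 6 subunits were below in both Nec-1 libraries, with log2 changes of -0.74 to -0.40. Mcm3 had 11.6 and 10.5 FPKM with EtOH DMSO and 6.45 and 5.97 with EtOH Nec-1 (-0.74, SE 0.19, adjusted p = 0.254), and Mcm6 17.9 and 18.5 against 12.7 and 12.3 (-0.51, SE 0.13, adjusted p = 0.253). The Nec-1 values were well clear of the DMSO values in both genes. Mcm2, Mcm4, Mcm5 and Mcm7 were at -0.40, -0.55, -0.53 and -0.48, and the loading factor Cdt1 at -0.76.

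Gins1, Gins2 and Cdc45 were at -0.49, -0.32 and -0.48, and Rrm1 and Rrm2 at -0.45 and -0.28, with both Nec-1 libraries below. Pcna overlapped, at 79.8 and 86.4 FPKM with Nec-1 against 96.0 and 77.8, as did Rfc4, Tyms, Ccne1, Ccne2 and Cdk2. For Fen1 the Nec-1 replicates were 2.30 and 7.70 FPKM, and its change of -0.998 had an SE of 0.49. E2f1 and E2f8 were at -0.32 and -0.30.

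In the G2/M class the lowest adjusted p was that of Ccnb2, with 53.0 and 50.3 FPKM with EtOH DMSO and 36.7 and 37.7 with EtOH Nec-1 (-0.46, SE 0.076, adjusted p = 0.134). Ube2c had 40.3 and 41.2 against 26.8 and 28.9 FPKM (-0.53, adjusted p = 0.175), Cdc20 46.1 and 41.3 against 30.4 and 29.3 (-0.53, adjusted p = 0.21), and Aurkb 11.7 and 11.1 against 7.07 and 6.99 (-0.62, adjusted p = 0.208). In each the Nec-1 replicates lay close together and below. Foxm1 was 56.8% lower on average, at 1.17 and 1.15 FPKM against 3.46 and 1.91 (-0.74, SE 0.24, adjusted p = 0.323). Mki67 and Top2a were at -0.43 and -0.32, and only Ccnb1 (-0.01) and Prc1 (0.05) overlapped between the groups.

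Outside the 51, both Nec-1 libraries were below both DMSO libraries in 45 of 53 other replication genes and in 53 of 59 other mitosis genes, with medians of -0.31 and -0.31. The share over all genes tested was 39.1%. Both were above in 0 of the other replication genes and 2 of the other mitosis genes, against 10.5% of all genes. The restraining genes were below in 10 of 18, with a median of -0.15, beside -0.09 for all genes tested. No gene of these lists was called (0). At an unadjusted p under 0.05, 22 of the other replication genes and 30 of the other mitosis genes were lower, against 10.4% of all genes.

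The comparison of 4-OHT Nec-1 with 4-OHT DMSO asks the same in the organoids with 4-OHT. With 1 library it has no replicate check and no p-value is given. The cycle genes again read lower with Nec-1: 46 of 51 were below each of the 2 DMSO libraries, 24 of 25 S-phase and 22 of 26 G2/M genes, against 49.3% of all genes tested. After centring or upper quartile scaling it was 42 of 51, against 31.8% and 31.5% of all genes. The median difference from the DMSO mean was -0.46 (-0.49 for S-phase, -0.44 for G2/M), beside -0.08 for all genes.

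At least 0.5 log2 unit below each DMSO library lay 5 members, against 4.92% of all genes, and 0 lay that far above, against 2.76%. These were Foxm1 (1.79 FPKM against 7.03 and 5.03, a difference of -1.32 from the mean), Fen1 (11.2 against 19.2 and 32.2, -1.08), Aurkb (5.71 against 12 and 9.09, -0.77), Cdk1 (9.85 against 14.5 and 17.2, -0.63) and Ccne1 (4.80 against 7.70 and 7.24, -0.55). Foxm1 thus lay within the EtOH range of 1.15 to 3.46 FPKM, while Ccne1 stayed above its EtOH range of 1.39 to 2.23. The count rests on the DMSO libraries: against replicate 1 alone (without replicate 2) it was 33, and against replicate 2 alone 7. The share of all genes against a single DMSO library is not given here, so these counts describe the members alone.

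The MCM ring was again low throughout, all 6 subunits below each DMSO library with differences of -0.72 to -0.47. Mcm6 had 10 FPKM against 18.2 and 14.2, and Mcm2 3.52 against 6.11 and 5.03. Cdc25c, Hmmr, Kif23 and Ccnb1, of which the first 3 fell with 4-OHT, lay between the DMSO libraries. Nusap1 was at 4.85 FPKM against 5.84 and 5.12 (-0.15), and Pcna at 56.4 against 65.9 and 56.6 (-0.11).

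Across the arms, 39 of the 51 were lower with Nec-1 in both, against 23.9% of all genes tested: 18 S-phase and 21 G2/M genes. The S-phase median change with Nec-1 minus the G2/M median change was 0.097 in EtOH organoids, where it went to -0.033 without EtOH Nec-1 replicate 2, and -0.046 in 4-OHT organoids, beside 0.234 for 4-OHT. Cdt1 was the exception in direction. It had 7.14 and 5.03 FPKM with EtOH DMSO and 2.87 and 3.43 with EtOH Nec-1, then 5.03 and 3.93 with 4-OHT DMSO and 5.97 with 4-OHT Nec-1, the only member above each DMSO library there.

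**Figure D5:**
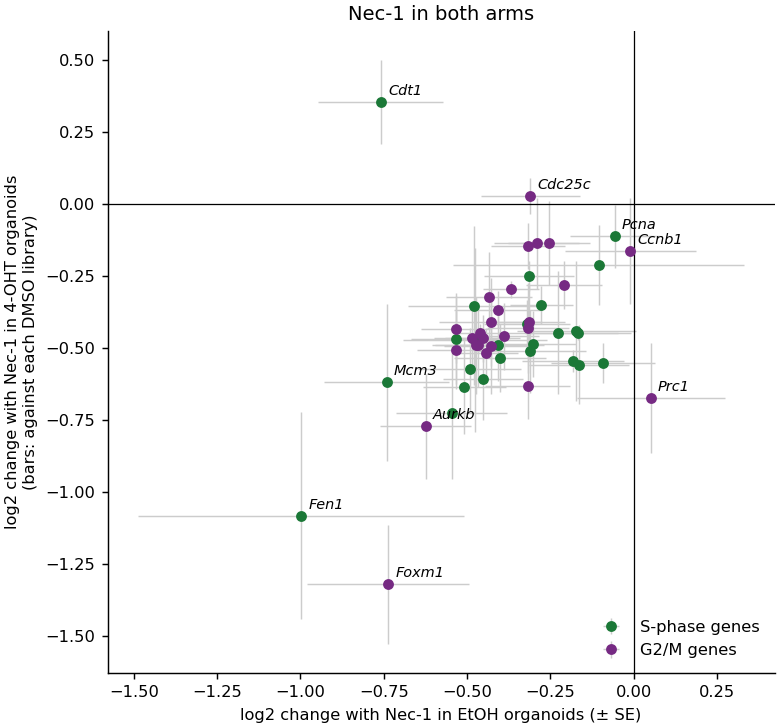
Each point is a gene, with its log2 change with Nec-1 in EtOH organoids (bars SE) against that in 4-OHT organoids (bars from the difference to one DMSO library to that to the other). All but 1 point lie left of 0, most between -0.6 and 0 on both axes; Foxm1 and Fen1 lie lowest and Cdt1 lies apart at the upper left.

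Under Nec-1, the 4-OHT library was compared with the 2 EtOH Nec-1 libraries, also without a test. There 29 of 51 members were below each EtOH Nec-1 library (38% of all genes) and 18 above each (50.4%). The median difference was 0.03 for the S-phase and -0.25 for the G2/M genes, beside 0.08 for all genes tested. At least 0.5 log2 unit below each EtOH Nec-1 library lay 8 members, against 8.61% of all genes, and 4 lay that far above, against 15.9%. By class these were 1 S-phase and 7 G2/M genes below and 3 S-phase and 1 G2/M gene above.

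Markers of other cell types of the epithelium moved with 4-OHT. Over all genes tested 24.5% were called higher in that comparison and 16.7% lower. Paneth markers rose in 8 of 10 and their summed level went from 7422 to 8192 FPKM with EtOH DMSO to 19214 to 19741 with 4-OHT DMSO, with 14746 with 4-OHT Nec-1 and 8711 to 8905 with EtOH Nec-1. Goblet markers rose in 7 of 8 (1969 to 2164 FPKM against 3285 to 3841) and enteroendocrine markers in 8 of 8 (369.8 to 381.9 against 824.4 to 975.4). Of 11 enterocyte markers tested 3 rose and 5 fell (2704 to 2934 against 1418 to 1494 FPKM), and of 9 stem cell markers 1 rose and 3 fell (86.7 to 88.2 against 63.2 to 86.6). In EtOH Nec-1, 8 of 9 stem cell markers were below both DMSO libraries (64.5 to 65.7 FPKM), against 39.1% of all genes tested, and 0 were called. Of the enterocyte markers 6 of 11 were below both DMSO libraries there (2250 to 2447 FPKM in sum) and 3 were above both. The shares over all genes tested were 39.1% and 10.5%. In this list 1 gene, the apolipoprotein gene Apoa4, was called lower (adjusted p = 0.0102, limma). These libraries are of whole organoids, in which fewer cells of a type and less RNA per cell cannot be told apart, and the part of cell makeup in the cycle genes was not tested. Epithelial markers rose with 4-OHT in 5 of 7 (3377 to 3578 FPKM against 4078 to 4708) and summed to 3142 to 3174 in EtOH Nec-1 and 3631 in 4-OHT Nec-1. Immune markers summed to 4.09 to 4.39 FPKM in the 3 Nec-1 libraries and to 1.23 to 2.60 in the 4 DMSO libraries, mostly from Lyz2 and Itgam, while Ptprc, the common leukocyte marker, was at most at 0.0497 FPKM. Their part in the Nec-1 difference of the cycle genes was not tested. Fibroblast markers summed to at most 0.137 FPKM, with 0 of 6 fibroblast and 2 of 6 immune markers reaching the level needed for a test. Of 6 tuft markers 1 was tested and 0 were called, and Il25 (tuft) and Lum (fibroblast) were listed at 0 in every library.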

How the data were processed

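RNA of organoids was sequenced on the Illumina HiSeq X platform from libraries of the NEBNext Ultra kit, and the authors deposited FPKM per gene, under Ensembl mouse identifiers, made with HISAT2 2.1.0 and StringTie 1.3.3b on mm10 per the submitters' processing notes. The annotation and the use of strand are not given in the sources used here. Of 54838 identifiers, 54723 had a symbol in the reference table. No column was left unmapped (0), and 2 columns that repeat another library's values were not used again. Fragment counts were not used here, so the precision behind a single value is unknown, and the spacing of low values gave depths of only roughly 0.852 to 1.03 times that of the first library. The Atf3 samples (2) were not analysed here.

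All 7 libraries were fitted with limma 3.58.1 (R 4.3.3, mean-variance trend) on log2(FPKM + 1), 1 mean per group, over the 12702 genes that reached 1 FPKM in 2 or more libraries, with 3 residual degrees of freedom, Benjamini-Hochberg adjustment over all genes tested and a threshold of 0.05. A log2 change is on the log2(FPKM + 1) scale and understates the change of low genes. The single 4-OHT Nec-1 library was compared by values, with 0.5 log2 unit from each library as the limit. The fit was tested on simulated data. Tables and figures were made with Python 3.11.15, pandas 2.3.3, numpy 2.4.6 and matplotlib 3.10.9. Alternatives were fits without the trend, other scalings, filters and pseudocounts (0.1 and 0.25), fewer libraries, a replicate block and a fold criterion.

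The members, gene lists and tests were chosen with earlier results of these data known. Values in every library are given for, in each class, the 4 largest rises and falls past the threshold with 4-OHT, the members past the limit with Nec-1, Mki67, Top2a, Pcna, Mcm2, Ccnb1 and Cdk1, and the 2 largest rises and falls of each further list.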

Additional observations from a re-analysis of the deposited data

Results flagged for a closer look

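Cdt1, which loads the MCM ring onto origins, was the 1 member that moved in opposite directions with Nec-1 in the 2 arms in every library. In EtOH organoids both Nec-1 libraries (2.87 and 3.43 FPKM) were below both DMSO libraries (7.14 and 5.03 FPKM), a log2 change of -0.759. In 4-OHT organoids the Nec-1 library (5.97 FPKM) was above both DMSO libraries (5.03 and 3.93 FPKM), a difference of 0.353. The difference between the arms was not tested, and the 4-OHT arm rests on 1 Nec-1 library.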

How the results depend on the processing

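With groups of 2 and 1 and 3 residual degrees of freedom, calls rest on a shared spread. The 17 members called with 4-OHT became 7 with no filter on low values, 11 with only the 4 libraries of the comparison, and 4 at an unadjusted p under 0.05 with at least 1 log2 unit. Leaving out each library in turn gave 9 to 14. A replicate block gave 15. Over all genes, 5237 of 12702 were called in the main fit and 4475 of 28195 with no filter on low values. With only the 4 libraries 3958 of 12702 were called, by the fold criterion 1364 and with the block 4697. The number called at these settings thus fell over all genes too, not only among the members. Deviations of same-numbered libraries correlated between groups at -0.040 to 0.0065, so no shared deviation was seen across genes. Whether same-numbered libraries share a culture or batch is not stated, and the block says nothing on the size of effects. Gene by gene over these alternatives, 718 values kept their side of the threshold, 85 lost it and 13 gained it. Ccne1, Nusap1 and Cdc25c kept their call in each. With Nec-1 in EtOH organoids 0 members were called under each alternative, also with 1 library left out. The 5 members past the limit with Nec-1 in 4-OHT organoids became 2 after centring and 2 after upper quartile scaling. They became 14 and 10 with pseudocounts of 0.1 and 0.25. The count was 1 at a limit of 1 log2 unit, and 7 to 33 when a DMSO library was left out. The share of all genes at these settings is not given here, so these counts describe the members alone. The distance between S-phase and G2/M medians with 4-OHT, 0.234, was 0.396 with means, and 0.224 to 0.370 with a library left out; with means and without 5 genes, a choice made after seeing the data, it was 0.235. With Nec-1 in EtOH organoids, 0.0966 became 0.0245 and 0.0341 with pseudocounts of 0.1 and 0.25, 0.00346 with means and -0.0328 to 0.0649 with a library left out. With Nec-1 in 4-OHT organoids, -0.0456 became -0.151 and -0.146 with these pseudocounts and -0.0867 to -0.0465 with a library left out. The cause of these shifts was not tested.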
